A study of Homo sapiens with 15 samples.

Results

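The comparison described here asked what the sphingosine kinase 1 inhibitor PF-543 added to enzalutamide in C42B cells. C42B is a human prostate cancer line derived from LNCaP that grows without androgens. It set 3 arrays of cells given 10 µM enzalutamide together with 15 µM PF-543 against 2 arrays of cells given 10 µM enzalutamide alone, all after 6 h of treatment, so both groups carried the androgen receptor blocker and differed in PF-543. These are 5 of the 15 arrays of the study, chosen by their labels, and no vehicle array enters the difference. The other 10 arrays held DMSO vehicle (3), 15 µM PF-543 alone (3), 15 µM ABC294640 alone (1) and 10 µM enzalutamide with 15 µM ABC294640 (3), also at 6 h. ABC294640 (opaganib) is an inhibitor of the other sphingosine kinase. All cells were grown in medium with serum, and total RNA was taken from the bulk culture, so fewer cells of a given state and less of a transcript per cell cannot be told apart. The labels number the replicates but do not say whether each came from its own culture. The p-values therefore reflect only how far these arrays differ, which may be technical.

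Sphingosine kinase 1 phosphorylates sphingosine, a breakdown product of ceramide, to sphingosine 1-phosphate, a lipid signal that acts on cell-surface receptors. Much of the description below concerns a pair of gene programs. Sterol synthesis is under the control of SREBP transcription factors, which are held in the endoplasmic reticulum by INSIG proteins when sterols are plentiful and are released to switch on the genes of cholesterol synthesis when sterols in that membrane fall; INSIG1 is itself an SREBP target. The integrated stress response is the route by which amino acid shortage, unfolded proteins and other stresses lead, through phosphorylated eIF2α, to translation of ATF4, which then switches on genes such as DDIT4, ATF3, TRIB3, CHAC1 and DDIT3. In prostate cells, lipid synthesis genes are also known to respond to androgens.

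Values are log2 signals as deposited, for 17687 genes with 1 probe set each. The medians of the 5 arrays lay between 6.72 and 6.76, and no pair of the 15 arrays held identical values. Over all genes the arrays of 1 group correlated at 0.9959 to 0.9966 and arrays of different groups at 0.9953 to 0.9965, so the treatment did not dominate the differences between arrays. Of 8 measured luminal prostate markers, 7 (KLK3, KLK2, FOLH1, HOXB13, KRT8, KRT18 and STEAP2) were above the upper quartile of signal on all 5 arrays. The other was TMPRSS2. The summed log2 signal of all 8 was 107.65 to 108.1 with enzalutamide and 107.16 to 107.83 with the combination. The basal markers KRT5 and KRT14, the 3 measured neuroendocrine markers and the 3 endothelial markers were below the median on all 5 arrays, as were 2 of 3 leukocyte and 2 of 4 fibroblast markers; none of these 15 was above the upper quartile. The 3 DMSO arrays, used below only for PF-543 given alone and for the shared estimate of spread, stood apart in the shape of their signal: their lower quartile was 4.65 to 4.69, against 4.57 to 4.63 on the 12 arrays of treated cells.

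PF-543 added to enzalutamide raised 5 genes and lowered none past the threshold (limma, adjusted p under 0.05). The 5 were INSIG1, the sterol sensor that retains SREBP; MSMO1, which removes methyl groups from sterol precursors; IDI1, the isopentenyl diphosphate isomerase of the mevalonate pathway; DDIT4, a brake on the mTORC1 growth kinase; and ATF3, a transcription factor induced by stress. The 5 higher genes are 0.0283% of the genes tested, and the lower ones 0%. At an unadjusted p under 0.05, 1385 genes differed, 755 higher and 630 lower, where 884 would be so by chance. The precision was limited: the 95% confidence interval of the median gene reached log2 0.34 to either side of its difference.

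INSIG1 stood at log2 12.76 and 12.84 on the enzalutamide arrays and at 13.96, 14.04 and 13.88 with PF-543 added. The groups do not overlap, and the difference was log2 1.16 (SE 0.13, 2.23-fold; limma adjusted p = 0.00656). MSMO1 stood at 13.72 and 13.75 with enzalutamide and at 14.76, 14.91 and 14.87 with the combination. All 3 combination arrays lay more than 1 log2 unit above both enzalutamide arrays, and the difference was log2 1.11 (SE 0.10, 2.16-fold; limma adjusted p = 0.0016). IDI1 went from 13.04 and 12.89 to 13.70, 13.84 and 13.74, a smaller step with no overlap (log2 0.80, SE 0.12, 1.74-fold; limma adjusted p = 0.0413).

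DDIT4 was at log2 12.86 and 12.89 with enzalutamide and at 13.93, 14.11 and 14.09 with the combination (log2 1.17, SE 0.14, 2.25-fold; limma adjusted p = 0.0118). Its level on the DMSO arrays was 11.94, 11.68 and 11.43, so the combination arrays were the highest of the study and the DMSO arrays, with the ABC294640 array at 11.81, among the lowest. ATF3 was at 7.22 and 7.46 with enzalutamide and at 8.42, 8.36 and 8.39 with the combination (log2 1.05, SE 0.14, 2.07-fold; limma adjusted p = 0.0305). The 3 combination arrays of ATF3 lay within 0.06 of each other and above the other 12 arrays of the study, of which the highest was 8.25.

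The direction of these 5 differences held in each of 14 other settings, but the calls rested on few arrays. Leaving out enzalutamide replicate 1 or enzalutamide replicate 2 left 0 genes past the threshold, and leaving out replicate 1, 2 or 3 of the combination left 3, 1 and 2. MSMO1 ranged from log2 1.08 to 1.16 over the settings and was called in 11 of 14; INSIG1 ranged from 1.12 to 1.20 (10 of 14), DDIT4 from 1.14 to 1.23 (9 of 14), ATF3 from 0.93 to 1.17 (6 of 14) and IDI1 from 0.72 to 0.87 (5 of 14). An exact permutation test of 3 arrays against 2 has 10 assignments and cannot give a two-sided p below 0.1.

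**Figure D1:**
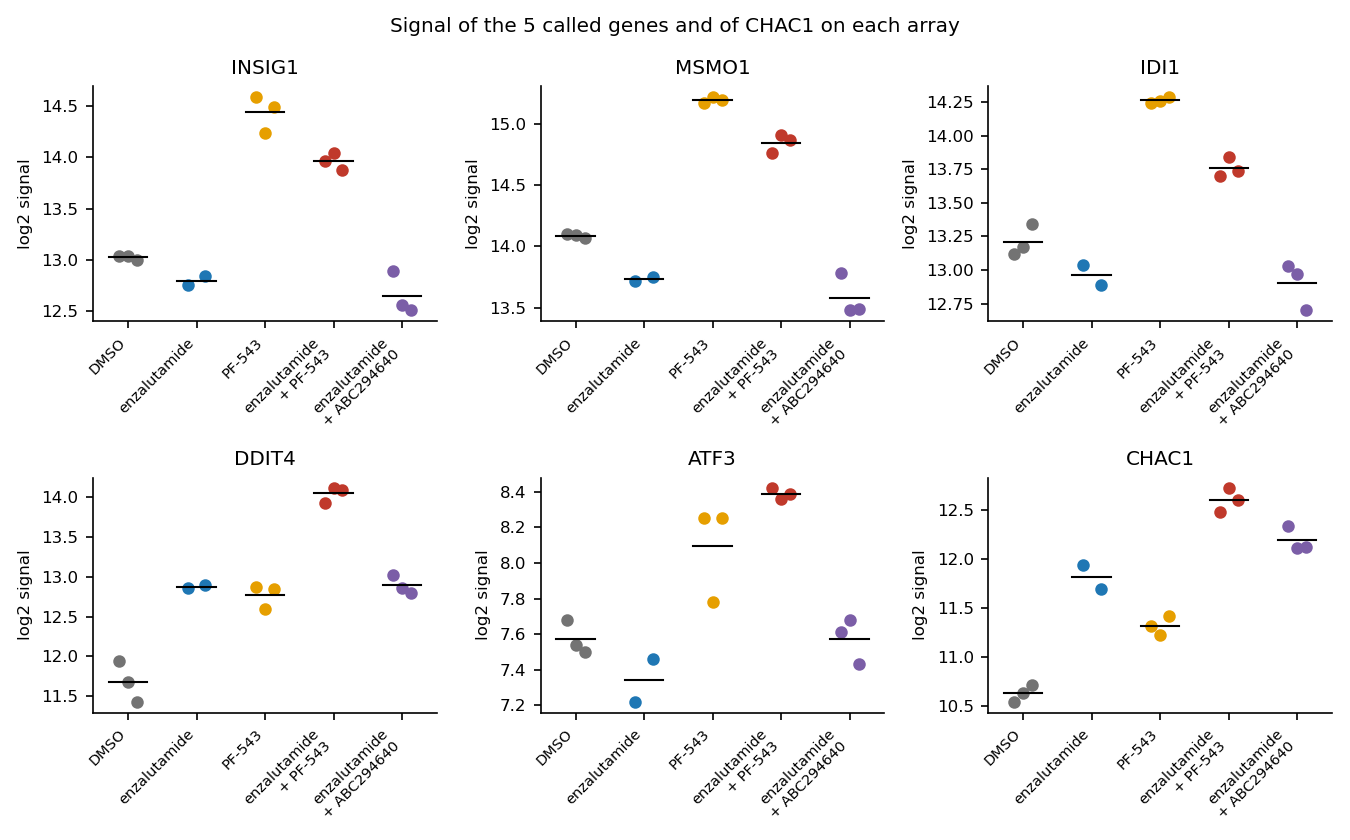
Log2 signal (vertical axis, scaled per gene) of INSIG1, MSMO1, IDI1, DDIT4, ATF3 and CHAC1 on each array, by treatment; points are arrays and lines are group means, and the single ABC294640 array is not drawn. In each panel the 3 combination arrays lie above both enzalutamide arrays; the sterol genes are highest with PF-543 alone, and DDIT4, ATF3 and CHAC1 are highest with the combination.

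The genes just outside the threshold were CHAC1 (log2 0.79, limma adjusted p = 0.055), ANAPC10 (0.68, 0.0558), ELOVL6 (0.68, 0.0565), STARD4 (0.76, 0.0954), KCTD13 (0.79, 0.0954), ACSL1 (0.60, 0.114) and CCNG2 (0.68, 0.114), the second number being the adjusted p. CHAC1, a glutathione-degrading enzyme and ATF4 target, was at log2 11.94 and 11.69 with enzalutamide and at 12.48, 12.72 and 12.60 with the combination. ELOVL6, a fatty acid elongase, went from 9.93 and 10.19 to 10.68, 10.77 and 10.78, and STARD4, a cytosolic sterol carrier, from 8.80 and 8.82 to 9.37, 9.72 and 9.61. Like the 5 called genes, these 3 had no overlap between the groups. ANAPC10, a subunit of the anaphase-promoting complex, read 8.29 and 8.15 against 8.89, 8.89 and 8.92, and KCTD13, an adaptor of a ubiquitin ligase, 8.96 and 8.55 against 9.57, 9.58 and 9.49; both stand outside the lipid and stress lists.

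The RefSeq sequence just before the start of transcription is shown for the 5 called genes, because short elements of both programs are known. Each window holds the 250 bases before an annotated start in GRCh38.p14, 5′ to 3′ on the gene's strand, the first listed start being taken for IDI1 and ATF3, which have several. The windows are INSIG1 at chr7:155297628-155297877 (plus strand), MSMO1 at chr4:165327419-165327668 (plus), IDI1 at chr10:1048887-1049136 (minus), DDIT4 at chr10:72273674-72273923 (plus) and ATF3 at chr1:212565157-212565406 (plus). Capitals mark every match, on either strand, to CCAAT (the NF-Y box), TCACNCCAC (a sterol regulatory element), TGATGNAA (an amino acid response element) or TGACGTCA (a cyclic AMP response element).
INSIG1: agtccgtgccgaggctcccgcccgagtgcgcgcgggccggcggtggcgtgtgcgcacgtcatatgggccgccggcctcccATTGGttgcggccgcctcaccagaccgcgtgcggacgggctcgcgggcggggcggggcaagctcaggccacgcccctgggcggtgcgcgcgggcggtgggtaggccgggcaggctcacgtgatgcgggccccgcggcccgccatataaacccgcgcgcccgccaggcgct
MSMO1: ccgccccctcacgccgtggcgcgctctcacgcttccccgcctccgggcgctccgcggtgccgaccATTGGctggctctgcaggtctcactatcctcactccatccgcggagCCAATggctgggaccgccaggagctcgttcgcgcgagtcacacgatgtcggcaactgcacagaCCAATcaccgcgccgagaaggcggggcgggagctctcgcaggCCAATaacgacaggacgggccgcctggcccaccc
IDI1: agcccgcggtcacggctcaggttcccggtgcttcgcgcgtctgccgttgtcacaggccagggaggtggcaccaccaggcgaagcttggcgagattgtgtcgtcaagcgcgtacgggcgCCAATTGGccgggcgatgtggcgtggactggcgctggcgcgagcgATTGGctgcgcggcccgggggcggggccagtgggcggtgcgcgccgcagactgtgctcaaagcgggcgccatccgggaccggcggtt
DDIT4: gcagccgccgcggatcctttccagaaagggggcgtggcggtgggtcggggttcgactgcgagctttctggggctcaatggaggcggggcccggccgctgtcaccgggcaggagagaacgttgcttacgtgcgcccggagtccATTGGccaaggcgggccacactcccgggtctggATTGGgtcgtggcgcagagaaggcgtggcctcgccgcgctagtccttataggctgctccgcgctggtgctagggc
ATF3: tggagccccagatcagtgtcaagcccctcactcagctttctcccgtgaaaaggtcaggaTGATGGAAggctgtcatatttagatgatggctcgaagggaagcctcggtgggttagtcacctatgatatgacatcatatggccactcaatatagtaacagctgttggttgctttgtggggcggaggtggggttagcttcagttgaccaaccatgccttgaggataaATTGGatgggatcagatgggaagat

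INSIG1 holds 1 CCAAT match, MSMO1 4 and DDIT4 2, and none of these 3 holds another of the motifs. ATF3 has 2 annotated starts; the window of its first holds 1 CCAAT and 1 TGATGNAA match and that of the second holds none of the 4 motifs. IDI1 has 3 starts, with 3, 2 and 0 CCAAT matches. CCAAT was found for 18 of 26 genes of the sterol lists with a window (69.2%) and for 10 of 15 stress factor and ATF4 effector genes (66.7%), against 40.5% of 14250 tested genes with a window. TGATGNAA was found for 4 of those 15 stress genes (26.7%) and 0 of the 26 sterol genes, against 3.15% of all. TCACNCCAC was found for 1 gene of each set and 1.21% of all, and TGACGTCA for 1 stress gene, 0 sterol genes and 2.76% of all. A gene with several annotated starts has several windows, so these shares also reflect the number of starts. A match is a run of letters, not a measured binding site. The genes of both sets were chosen with earlier results of these data known. The stress set also leaves out the lists of amino acid synthesis, amino acid transporters and tRNA synthetases. The shares therefore describe these sets and are no test of them.

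Most cholesterol synthesis genes were higher on all 3 combination arrays than on both enzalutamide arrays, though few passed singly. Over 28 measured of 35 listed genes of SREBP control, the mevalonate pathway and the steps from squalene to cholesterol, 3 rose past the threshold (INSIG1, IDI1 and MSMO1), 0 fell and 25 did not pass. In 17 of the 28 (60.7%) all 3 combination arrays lay above both enzalutamide arrays, and in 1 they lay below. Over all genes tested these shares were 12.8% above and 11.2% below. The median difference of the 28 was log2 0.25, against 0.005 over all genes. The genes of each list were chosen with earlier results of these data known, so these counts describe the lists and are no test of them.

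The mevalonate pathway builds farnesyl diphosphate from acetyl-CoA. Of its 8 measured genes, 6 (75%, against 12.8% of all genes) were higher without overlap (median log2 0.31). HMGCS1, which makes HMG-CoA, was at 11.33 and 11.24 with enzalutamide and at 12.05, 11.81 and 12.04 with the combination (log2 0.68, limma adjusted p = 0.202). MVK, the mevalonate kinase, was at 8.40 and 8.48 against 8.90, 9.06 and 9.17 (log2 0.60, adjusted p = 0.476). MVD, the decarboxylase that follows, differed by log2 0.34, the thiolase ACAT2 by 0.28 and the farnesyl diphosphate synthase FDPS by 0.21, each without overlap and with limma adjusted p from 0.561 to 0.767. The 2 others, the phosphomevalonate kinase PMVK at log2 -0.17 and the geranylgeranyl diphosphate synthase GGPS1 at -0.05, overlapped.

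From squalene to cholesterol, all 11 measured genes had a difference above 0, as did 51.2% of all genes. Of the 11, 9 (81.8%, against 12.8% of all genes) were higher without overlap (median log2 0.37). After MSMO1, the largest were the sterol reductase HSD17B7 (log2 0.59), the lanosterol synthase LSS (0.54) and the squalene epoxidase SQLE (0.54). LSS read 10.54 and 10.51 against 10.87, 11.23 and 11.10, and SQLE 10.63 and 11.03 against 11.30, 11.28 and 11.52, so the 2 enzalutamide arrays of SQLE were themselves 0.40 apart. DHCR7, which catalyses the last step, differed by log2 0.37, SC5D by 0.42, LBR by 0.31, and CYP51A1 and TM7SF2 by 0.17 each; NSDHL (0.06) and EBP (0.04) overlapped. None of these 10 passed (limma adjusted p from 0.235 to 0.955).

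Among the regulators, INSIG1 passed and the parts of the SREBP machinery it controls did not. SREBF2, the factor that drives cholesterol genes, was at log2 0.22 (95% CI -0.10 to 0.53), SREBF1, which drives fatty acid genes, at -0.09 (95% CI -0.32 to 0.15), the escort protein SCAP at 0.09 and the protease MBTPS1 at -0.01, all with overlapping arrays. INSIG2, the paralog of INSIG1, was at 0.12 (95% CI -0.32 to 0.56). NPC1, which exports cholesterol from lysosomes, was at 0.05, and RNF145, a sterol-sensing ubiquitin ligase, was the 1 gene whose combination arrays all lay lower (log2 -0.19, limma adjusted p = 0.753). Of the 6 measured genes of sterol efflux and LXR, the oxysterol receptor, NR1H3 (the LXRα gene) was at 0.51 and the exporter ABCG1 at -0.38, and the median was log2 0.02.

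**Figure D2:**
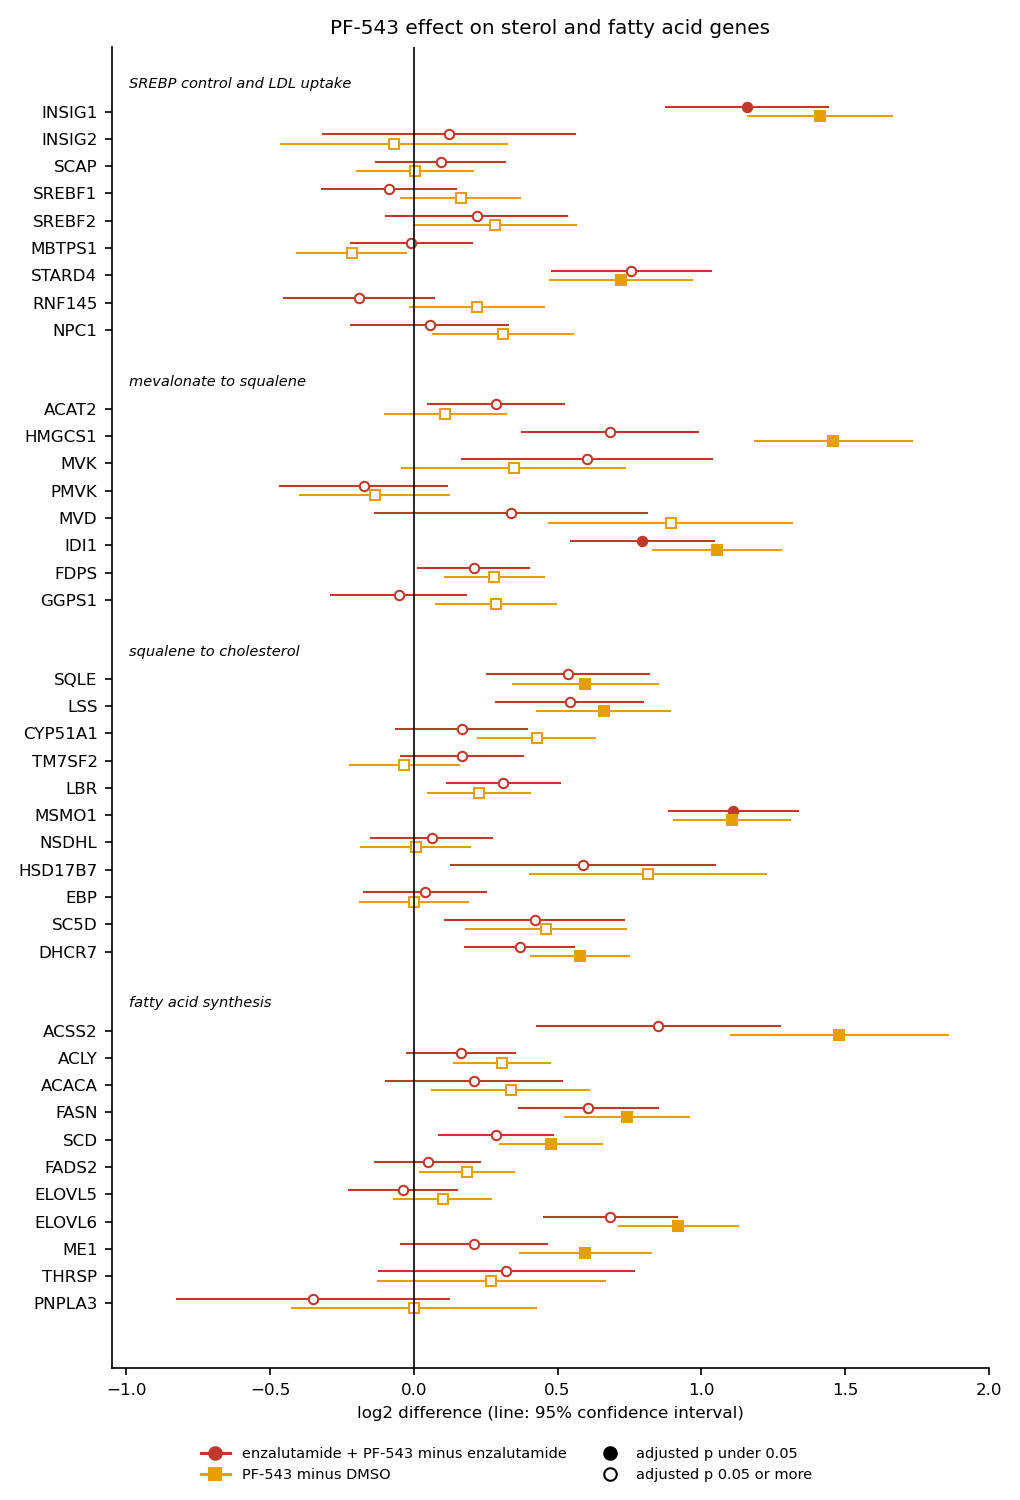
Log2 difference with its 95% confidence interval (horizontal axis) for each measured gene of sterol control, the mevalonate pathway, squalene to cholesterol and fatty acid synthesis. Red circles show the combination minus enzalutamide and orange squares PF-543 minus DMSO, filled where the adjusted p was under 0.05: the 3 filled red circles are INSIG1 (1.16), IDI1 (0.80) and MSMO1 (1.11), and most other red points lie to the right of 0.

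Fatty acid genes stood in the same direction with none called. Of 11 measured, 6 (54.5%) were higher and 0 lower without overlap, against 12.8% and 11.2% of all genes. The median was log2 0.21. The acetate-activating enzyme ACSS2 was at log2 9.07 and 8.73 with enzalutamide and at 9.56, 9.76 and 9.93 with the combination (log2 0.85, limma adjusted p = 0.271). FASN, the fatty acid synthase, was at 13.84 and 14.14 against 14.58, 14.61 and 14.60 (log2 0.61, adjusted p = 0.14). SCD, the stearoyl-CoA desaturase, differed by log2 0.28 (adjusted p = 0.459). ACSL1, which activates fatty acids and is in none of the lists, was at 12.30 and 12.11 against 12.85, 12.79 and 12.77. PNPLA3 (-0.35), THRSP (0.32), ACACA (0.21), FADS2 (0.05) and ELOVL5 (-0.04) overlapped. Of 9 phospholipid synthesis and lipase genes, 5 (55.6%) were higher without overlap (median log2 0.14, and 0.22 without enzalutamide replicate 2). They were led by the endothelial lipase LIPG at log2 0.59 (5.29 and 5.50 against 6.12, 5.99 and 5.85, limma adjusted p = 0.413).

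Stress transcription factors and ATF4 effector genes were mostly higher with the combination, and genes of amino acid supply were divided between higher and lower. Of 9 stress transcription factors, ATF3 passed, all 9 had a difference above 0, and 7 had no overlap (median log2 0.43). Of 8 effector genes, DDIT4 passed, 6 had no overlap and were higher, and none was lower without overlap (median log2 0.39). Higher without overlap were 77.8% of the factors and 75% of the effectors, against 12.8% of all genes. Of all genes, 11.2% were lower without overlap and 51.2% had a difference above 0. With the lists of amino acid synthesis, transporters and tRNA synthetases added, 53 genes were measured. Of these, 21 (39.6%) were higher and 8 (15.1%) lower without overlap, and the median was log2 0.085. ATF4 itself, whose activity is set mainly by translation, was at 14.35 and 14.38 with enzalutamide and at 14.40, 14.44 and 14.47 with the combination (log2 0.07, 95% CI -0.12 to 0.27).

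TRIB3, a pseudokinase that restrains ATF4 and AKT, was at log2 9.41 and 9.64 with enzalutamide and at 10.44, 10.35 and 10.49 with the combination (log2 0.90, limma adjusted p = 0.155). DDIT3, which encodes CHOP, was at 8.56 and 8.36 against 9.04, 9.53 and 9.31 (log2 0.83, limma adjusted p = 0.353). GDF15, a secreted stress hormone, was at 10.86 and 10.92 against 11.78, 11.86 and 11.73 (log2 0.90, limma adjusted p = 0.202). The arrays of these 3 genes do not overlap, but their standard errors, 0.17 to 0.22, were wider than the 0.10 to 0.14 of the called genes. JDP2 (log2 0.48), NUPR1 (0.43) and CEBPB (0.17) had no overlap, as did SLC7A11 (0.49), the cystine importer, PPP1R15A (0.30), which restarts translation, and SESN2 (0.19). CEBPG (0.09), NFE2L1 (0.08), STC2 (0.16) and VLDLR (-0.05) overlapped.

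Of 10 genes of amino acid and folate-linked synthesis, 3 (30%) were higher and 3 (30%) lower without overlap (median log2 0.03). The shares of all genes were 12.8% and 11.2%. The 3 higher were CTH, which makes cysteine (6.73 and 6.53 against 7.35, 7.06 and 7.32; log2 0.61, limma adjusted p = 0.373), PSPH of serine synthesis (0.38) and the asparagine synthetase ASNS (0.26); PHGDH, SHMT2, MTHFD2 and PSAT1 lay between 0.01 and 0.10. Amino acid transporters (10 measured; 1 higher, 2 lower; median log2 0.02) and cytosolic tRNA synthetases (16 measured; 4 higher, 3 lower; median 0.02) were higher without overlap in 10% and 25% of members, against 12.8% of all genes. The unfolded protein response of the endoplasmic reticulum had 4 of 17 higher and 0 lower without overlap (median 0.02), the largest being HERPUD1 (0.25), XBP1 (0.20) and EDEM1 (0.17). The kinases that phosphorylate eIF2α and the amino acid sensors of mTORC1 had 1 of 14 higher and 1 lower (median -0.01). None of the genes in these lists passed the threshold.

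**Figure D3:**
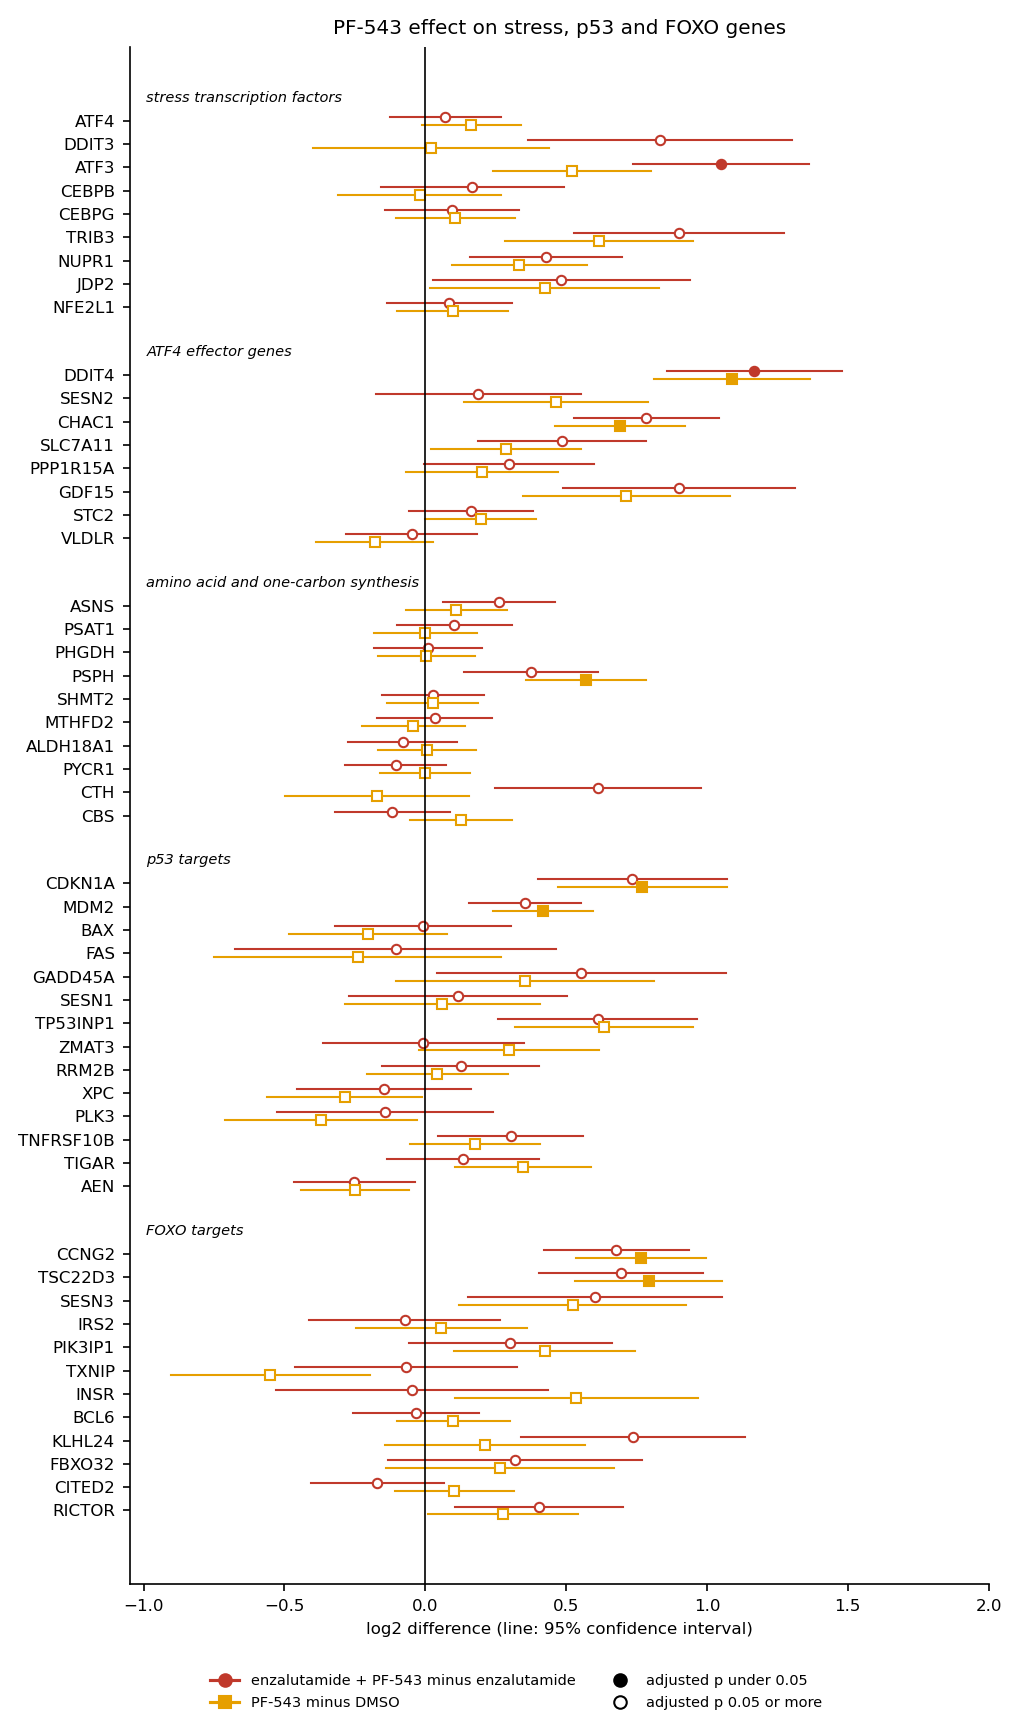
Log2 difference with its 95% confidence interval (horizontal axis) for stress transcription factors, ATF4 effectors, amino acid synthesis, p53 targets and FOXO targets; red circles are the combination minus enzalutamide, orange squares PF-543 minus DMSO, filled where the adjusted p was under 0.05. ATF3 (1.05) and DDIT4 (1.17) are the filled red circles, and the amino acid synthesis genes cluster around 0 apart from CTH (0.61) and PSPH (0.38).

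Several growth-restraining genes controlled by FOXO or p53 were also higher without passing. Of 12 FOXO targets, 5 were higher without overlap and 1 lower, 41.7% and 8.33% against 12.8% and 11.2% of all genes. Their median was log2 0.31, and 0.18 without enzalutamide replicate 2. Only 7 of the 12 (58.3%) had a difference above 0, against 51.2% of all genes, and the lowest was log2 -0.17. CCNG2, an atypical cyclin that slows the cycle, was at 9.87 and 9.50 with enzalutamide and at 10.33, 10.39 and 10.37 with the combination; TSC22D3, which encodes the glucocorticoid-induced leucine zipper, was at a mean of 11.08 over the enzalutamide arrays and at 11.58, 11.88 and 11.86 with the combination (log2 0.69, limma adjusted p = 0.155). KLHL24, a ubiquitin ligase adaptor, was at 6.97 and 6.99 against 7.67, 7.68 and 7.80 (log2 0.74, limma adjusted p = 0.314). SESN3, at log2 0.60, overlapped because its enzalutamide arrays read 9.0 and 8.39.

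Of 14 p53 targets, 6 were higher and 2 lower without overlap, 42.9% and 14.3% against 12.8% and 11.2% of all genes (median log2 0.12). CDKN1A, the cell-cycle inhibitor p21, was at 8.75 and 8.48 with enzalutamide and at 9.37, 9.30 and 9.38 with the combination (log2 0.73, limma adjusted p = 0.202). MDM2, the ligase that degrades p53, was at 11.33 and 11.31 against 11.65, 11.69 and 11.68 (log2 0.35, adjusted p = 0.353), and TP53INP1 was at log2 0.61 (adjusted p = 0.361). Other p53 targets were at or below 0: BAX was at -0.01, ZMAT3 at -0.01, FAS at -0.10, XPC at -0.15 and AEN at -0.25, the last 2 being those whose combination arrays all lay lower. CDKN1A and several of the others are also known targets of other stress factors.

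**Figure D4:**
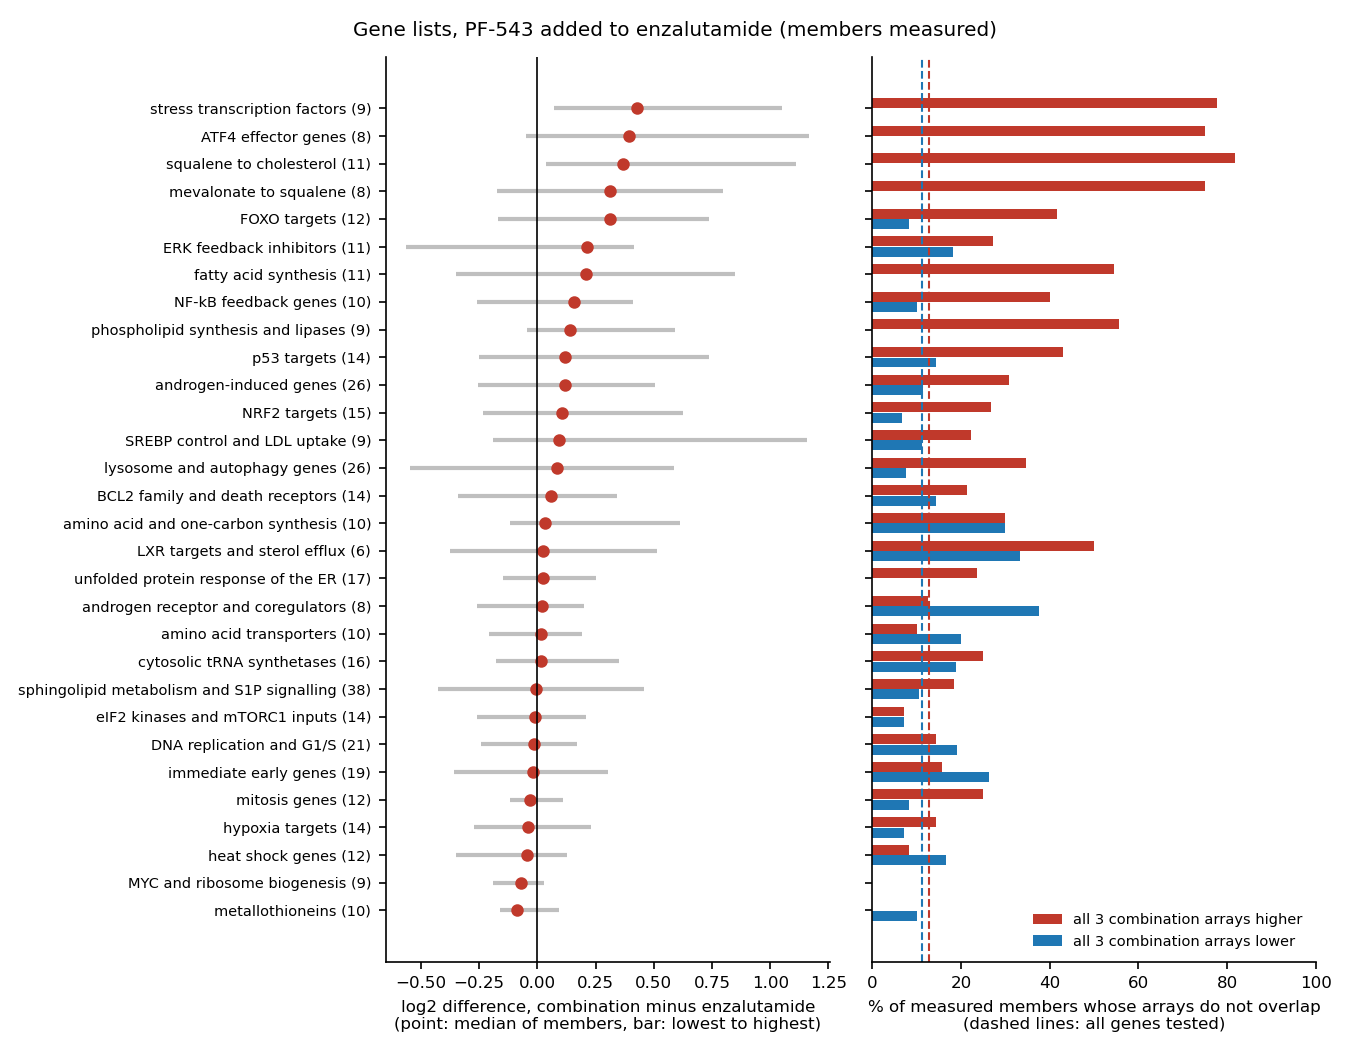
Left, the median log2 difference (point) and range (bar) of the measured members of each of 30 gene lists, combination minus enzalutamide; right, the percent of members whose 3 combination arrays all lay above (red) or below (blue) both enzalutamide arrays, with dashed lines at the shares of all genes, 12.8% and 11.2%. Stress transcription factors (0.43), ATF4 effectors (0.39) and squalene to cholesterol (0.37) have the highest medians, and metallothioneins (-0.09) the lowest.

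No gene of the drugs' own pathways passed. SPHK1, which encodes the target of PF-543, was at log2 7.88 and 8.10 with enzalutamide and at 7.67, 7.72 and 7.87 with the combination. The arrays do not overlap, by 0.01, and the difference was log2 -0.24 (95% CI -0.53 to 0.06, limma adjusted p = 0.725). Of 38 measured genes of sphingolipid metabolism and sphingosine 1-phosphate signalling, 7 were higher and 4 lower without overlap (18.4% and 10.5%, near the 12.8% and 11.2% of all genes), 0 passed, and the median was log2 -0.01. The largest were UGCG, which adds glucose to ceramide (0.46, limma adjusted p = 0.6), the ceramidase ACER1 (-0.43), the receptor S1PR5 (-0.33) and KDSR of ceramide synthesis (0.30); ACER1 and S1PR5 were low in signal, at 3.92 to 4.73 on all 5 arrays.

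Androgen-induced genes, which enzalutamide is known to lower, were measured for 26 of 28 members: 8 were higher and 3 lower without overlap (30.8% higher, against 12.8% of all genes, and a lower share near the 11.2% of all genes), 0 passed, and the median was log2 0.12. KLK3, which encodes prostate-specific antigen, was at 15.83 and 15.75 with enzalutamide and at 15.69, 15.74 and 15.64 with the combination (log2 -0.10, 95% CI -0.29 to 0.09). Its combination arrays thus all lay lower, by a narrow margin. The lowest difference in the list was log2 -0.255. The largest difference in the list was C1orf116, at 10.21 and 10.10 against 10.47, 10.78 and 10.73 (log2 0.51, limma adjusted p = 0.286), followed among genes without overlap by the kinase MAK (0.43), ORM1 (0.35) and the protease TMPRSS2 (0.32). Of 8 measured coregulators and pioneer factors of the androgen receptor, 1 was higher and 3 lower (12.5% and 37.5%, against 12.8% and 11.2% of all genes), GATA2 at log2 -0.26, HOXB13 at -0.25 and GRHL2 at -0.15.

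By size alone, the 12 largest differences upward among genes with an unadjusted p under 0.01 and no overlap were DDIT4, INSIG1, MSMO1, ATF3, RGS18, FMO5, PLA2G3, TRIB3, GDF15, MEX3B, ACSS2 and DZIP3, and 7 of them were in a list. RGS18, a regulator of G protein signalling, had a low and uneven signal (3.37 and 3.18 against 3.78, 4.12 and 4.76), and FMO5, a monooxygenase, owed much of its log2 0.93 to 1 low enzalutamide array (5.34 and 4.5 against 5.81, 5.89 and 5.85). The secreted phospholipase PLA2G3 was more even, at 4.97 and 4.90 against 5.54, 6.04 and 5.98 (log2 0.92, limma adjusted p = 0.16). Of these 12, 4 had a mean signal with the combination below the array median. The 12 largest differences downward ran from log2 -1.09 to -0.76 with limma adjusted p from 0.155 to 0.457, and none was in a list. Of the 12 downward, 10 had a mean signal with enzalutamide below the array median. The 12 downward were CNN3-DT, SLC22A10, HP, KRTAP13-3, TAT, OR52E8, KCNK5, HCLS1, RXFP2, ARHGAP15, NXPE1 and CCDC82. The brightest of them was KCNK5, a potassium channel, at 8.66 and 8.21 with enzalutamide and 7.41, 7.50 and 7.79 with the combination (log2 -0.87, limma adjusted p = 0.156). HPCAL1, not among the 12, was at log2 -0.745 without overlap and had a smaller limma adjusted p, 0.141. With a robust and trended variance prior, HPCAL1 and KCNK5 were called lower (limma adjusted p = 0.0236 and 0.0245). In all, 367 genes met both conditions, 212 higher and 155 lower.

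Whether enzalutamide altered the response to PF-543 was read by setting the difference above against PF-543 minus DMSO, a contrast that shares no array with it. Given alone, PF-543 raised 64 genes past the threshold (0.362% of those tested) and lowered 36 (0.204%). Of the 5 genes called on top of enzalutamide, 4 (INSIG1, MSMO1, IDI1 and DDIT4) were among these 64, which is 80% of the 5 and 6.25% of the 64. In 42 of the 64 the 3 combination arrays lay above both enzalutamide arrays, as they did in 12.8% of all genes. Across all 17687 genes the pair of differences correlated only weakly, at Pearson 0.172 and Spearman 0.157, a description over genes that are not independent. The test of the difference between the effects called 0 genes (0%; smallest limma adjusted p = 0.215; 1428 genes at an unadjusted p under 0.05, 884 by chance; 12 with a robust and trended prior). The DMSO arrays stand apart, as given above, and enter every value for PF-543 alone. Only the log2 differences on top of enzalutamide are free of them, since their standard errors and p-values come from the fit on all 15 arrays; fitted on the 12 arrays of treated cells, 3 of the 5 genes (MSMO1, INSIG1 and DDIT4) were called.

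For MSMO1 the effect of PF-543 was log2 1.11 with enzalutamide and 1.11 without, a difference of 0.00 (95% CI -0.30 to 0.31). For DDIT4 it was 1.17 and 1.09 (difference 0.08, 95% CI -0.34 to 0.49), although the enzalutamide arrays already lay above the DMSO arrays by more than 0.9. INSIG1 was at 1.16 with enzalutamide and 1.41 without (difference -0.25, 95% CI -0.63 to 0.12), and IDI1 at 0.80 and 1.05 (difference -0.26, 95% CI -0.59 to 0.08). These 4 intervals include 0, and they also include differences as large as 0.30 in size. HMGCS1 had a wider gap, 0.68 with enzalutamide and 1.46 without (difference -0.78, 95% CI -1.19 to -0.37; limma adjusted p = 0.416). With a robust and trended prior it was among the 12 genes called for this difference (limma adjusted p = 0.0482). The difference was above 0 for 3 of the 12 and below 0 for 9. The only other list member among the 12 was MYC (difference -0.46, limma adjusted p = 0.0352). HMGCS1 was at 12.86, 12.86 and 12.66 with PF-543 alone, above all 3 combination arrays.

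Some stress genes differed in the opposite sense, without passing. DDIT3 was at 7.80, 7.74 and 7.36 with DMSO and at 7.73, 7.33 and 7.90 with PF-543, a difference of log2 0.02, against 0.83 on top of enzalutamide (difference 0.81, 95% CI 0.18 to 1.44; limma adjusted p = 0.525). ATF3 was at 0.52 alone and 1.05 with enzalutamide (difference 0.53, 95% CI 0.11 to 0.95; adjusted p = 0.539), and 1 PF-543 array of ATF3, at 7.78, lay well below the other 2 at 8.25. CTH was at -0.17 alone and 0.61 with enzalutamide (difference 0.78, 95% CI 0.29 to 1.27; adjusted p = 0.439). Each of these intervals is unadjusted and excludes 0, but none of the 3 differences passed over all genes. CHAC1 (0.69 alone, 0.79 with enzalutamide), TRIB3 (0.62 and 0.90) and GDF15 (0.71 and 0.90) had intervals of the difference that include 0.

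**Figure D5:**
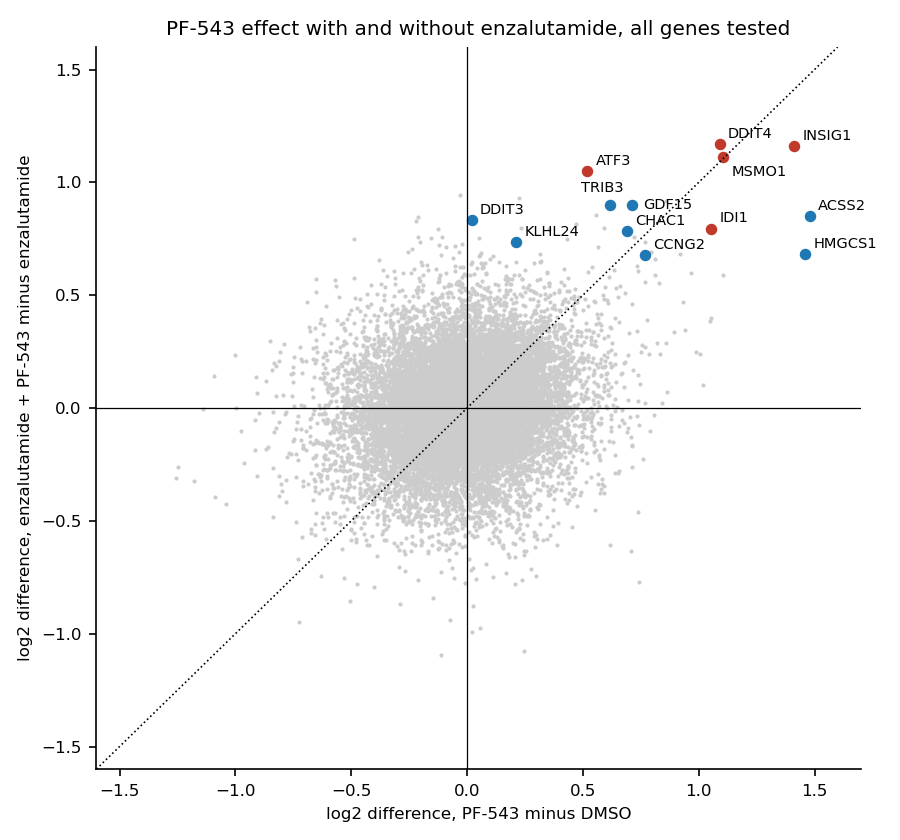
Log2 difference of PF-543 minus DMSO (horizontal axis) against that of the combination minus enzalutamide (vertical axis) for all 17687 genes; the dotted line marks equal effects, red points are the 5 genes called in the combination and blue points 8 others named in the text. MSMO1 and DDIT4 lie close to the line, INSIG1, IDI1, ACSS2 and HMGCS1 to its right, and DDIT3, at 0.02 and 0.83, far above it.

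The combination of 15 µM ABC294640 with 10 µM enzalutamide allowed a comparison with another inhibitor at the same nominal doses. How far either inhibitor blocked its target at 15 µM was not tested. ABC294640 added to enzalutamide gave 0 genes past the threshold (smallest limma adjusted p = 0.459; 1200 genes at an unadjusted p under 0.05). INSIG1 read 12.89, 12.56 and 12.51 there, MSMO1 13.78, 13.48 and 13.49, and DDIT4 13.02, 12.86 and 12.79, at most 0.13 above the higher enzalutamide array. In the direct comparison of the combinations, 16 genes were higher with PF-543 (0.0905% of those tested) and 1 was lower (0.00565%), and all 5 genes above were among the 16: INSIG1 by log2 1.31, MSMO1 by 1.26, DDIT4 by 1.15, IDI1 by 0.86 and ATF3 by 0.82, with limma adjusted p from 9.36e-05 to 0.0358. GDF15 (1.05), ACSS2 (1.10), HMGCS1 (0.81), STARD4 (0.78), FASN (0.70), CDKN1A (0.87), TSC22D3 (0.84), CCNG2 (0.73) and ACSL1 (0.62), which missed the threshold against enzalutamide alone, passed here (limma adjusted p from 0.0292 to 0.0377). This comparison has 3 arrays on each side and shares the PF-543 combination arrays with the main one, so the calls are not independent. CHAC1 read 12.33, 12.11 and 12.12 with the ABC294640 combination, above both enzalutamide arrays. It differed less between the combinations (log2 0.41, limma adjusted p = 0.396) than against enzalutamide alone, as did TRIB3 (0.50, limma adjusted p = 0.486). For ATF3 the gap of log2 0.82 was also smaller than the 1.05 against enzalutamide alone. Its mean with the ABC294640 combination therefore lay above that with enzalutamide. DDIT3 differed by log2 0.75 between the combinations (limma adjusted p = 0.396), close to its 0.83 against enzalutamide alone.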

How the data were processed

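RNA from 15 samples was measured on Affymetrix whole-transcript arrays. The deposited values are log2 signals; per the submitters' processing notes they were made with Transcriptome Analysis Console 4.02 and RMA, with the RMA variant not given in the sources used here. Of 21448 probe sets, 17709 had 1 gene symbol, 0 had several and 3739 had none; for each gene the probe set with the highest mean was kept, leaving 17687 genes. The deposited values carry 2 decimals.

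A limma 3.58.1 fit (R 4.3.3) with 1 mean per group on all 15 arrays gave every difference, with 9 residual and 3.82 prior degrees of freedom and Benjamini-Hochberg adjustment over 17687 genes at 0.05; lmFit and eBayes were tested on simulated data. Groups came from the labels, which give no batch or scan date. The single ABC294640 array entered the fit and gave no comparison. The number of arrays limits the precision.

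Genes named are those called, and the 12 largest rises and falls with an unadjusted p under 0.01 and no overlap. Named as well are up to 4 members per list with the largest change, and any member of the sterol lists. Others (members of the remaining lists, those just outside the threshold, and HPCAL1) were named after their values were seen. The 30 lists hold 460 genes, 409 of them measured; members and lists were chosen with earlier results of these data known. Genes without a value are not analysed here. Promoter sequences are from RefSeq. Alternatives covered normalization, filtering, the variance prior, array weights, the arrays fitted, the replicate block, thresholds and each array left out. Figures were drawn with Python 3.11.15 and matplotlib 3.10.9.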

Additional observations from a re-analysis of the deposited data

How the results depend on the processing

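Against the 5 genes called, 8 were called without the dimmest 25% of genes, 8 over all probe sets (3 of them without a gene symbol), 8 with array weights and 61 at an unadjusted p under 0.001. A robust and trended prior called 47, 38 higher and 9 lower; 22 of the 38 were in a list, among them CHAC1, TRIB3, GDF15, HMGCS1, FASN and CDKN1A, and all 5 were kept. Fitting only the 12 arrays of treated cells called 3 (MSMO1, INSIG1 and DDIT4), and fitting only the 5 arrays of the contrast called 0, with 3 residual degrees of freedom. Leaving out 1 array gave 0 to 3. The replicate block called 3. Same-numbered arrays of the 2 groups had deviations that correlated at -0.031 and -0.037. The deviations of the 2 enzalutamide arrays mirror each other, so these values cannot decide whether the numbers pair the samples. For the difference between the PF-543 effects, 0 genes became 12 with the robust prior and 40 at an unadjusted p under 0.001, and stayed 0 in the other settings run. No difference of a named gene tested under the alternatives changed direction. The medians of 8 of 30 lists, all between log2 -0.03 and 0.02 as reported, changed sign in at least 1 alternative (sphingolipid, coregulator, LXR, amino acid transporter, eIF2 and mTORC1, immediate early, replication and mitosis lists), and those of the other 22 did not. Of the differences of named genes under the alternatives, 352 kept their side of the threshold, 29 lost it and 25 gained it. Only the 5 called genes, each refitted in 14 settings, could lose it, so all 29 losses were theirs. Of the list medians, 379 moved by less than the spread and 41 by more. The cause of these changes was not tested. Every named gene rests on 1 probe set, and signals under the array median are less precise.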

Other observations

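Other gene groups measured in the same comparison, combination minus enzalutamide, gave no gene past the threshold. Of 26 lysosome and autophagy genes, 9 were higher and 2 lower without overlap (34.6% higher, against 12.8% of all genes; median log2 0.08). MITF, a transcription factor of lysosome genes, was at 7.05 and 6.70 with enzalutamide and at 7.41, 7.29 and 7.68 with the combination (log2 0.59, limma adjusted p = 0.568). MAP1LC3B, which encodes the autophagosome protein LC3B, was at 9.56 and 9.16 against 9.96, 9.92 and 9.78 (log2 0.53), and WIPI1 was at 0.38. GPNMB, a lysosomal glycoprotein, went the other way, from 6.69 and 6.39 to 5.90, 6.01 and 6.07 (log2 -0.55, limma adjusted p = 0.598). Of 15 NRF2 targets, 4 were higher and 1 lower without overlap (26.7% and 6.67%, against 12.8% and 11.2% of all genes). The largest difference was that of the haem oxygenase HMOX1, at 6.03 and 6.34 against 6.79, 6.72 and 6.92 (log2 0.63, limma adjusted p = 0.271). HMOX1 differed by only log2 0.04 between the combinations with PF-543 and with ABC294640 (adjusted p = 0.973).

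For the lists that follow, the counts of members without overlap stand against 12.8% higher and 11.2% lower over all genes. Of 11 feedback inhibitors of ERK signalling, 3 (27.3%) were higher and 2 lower; SPRY4 was at log2 0.42 with overlapping arrays, and the phosphatase DUSP5 was at -0.57 (5.45 and 5.98 against 5.09, 5.17 and 5.19). Of 10 NF-kB feedback genes, 4 (40%) were higher and 1 lower, with CXCL1 at 0.41 and ICAM1 at 0.31. Of 19 immediate early genes, 3 (15.8%) were higher and 5 (26.3%) lower; CCN2 was at -0.36, FOS at -0.23 and MYC, at 14.60 and 14.59 against 14.45, 14.33 and 14.34, at -0.22 (limma adjusted p = 0.578). Of 12 heat shock genes, 1 was higher and 2 lower, with the chaperone DNAJA1 at -0.35. Proliferation genes lay near 0: 3 of 21 replication and G1/S genes (14.3%) were higher and 4 (19%) lower (median log2 -0.01), 3 of 12 mitosis genes were higher and 1 lower (median -0.03), and 0 of 9 ribosome biogenesis genes was higher or lower (median -0.07). Of 14 BCL2 family and death receptor genes, 3 (21.4%) were higher and 2 (14.3%) lower, with BID at 0.34 and BOK at -0.34. Of 14 hypoxia targets, 2 (14.3%) were higher and 1 (7.14%) lower, and of 10 metallothionein genes 0 were higher and 1, MT2A at log2 -0.16, lower.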
